A study of Mus musculus with 9 samples.

Results

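Oligodendrocytes wrap axons in myelin, and the 35 genes described here mark the steps by which a precursor becomes a myelinating cell. They are the rows of the deposited count table whose name is on a given list of precursor, newly formed and myelinating oligodendrocyte genes, and all 35 were found, out of 21899 genes. The tissue was fresh paraventricular thalamus (PVT), a midline thalamic nucleus, of wild-type mice that had received an intraperitoneal injection, and its RNA was sequenced. Mice given PBS (phosphate-buffered saline) were sampled after 1 day, and mice given lipopolysaccharide (LPS, the endotoxin of Gram-negative bacteria) after 1 day or 7 days, with 3 libraries a group. The labels give no strain, age or sex and do not state whether the 3 libraries of a group are different animals. The p-values here therefore cover the spread among libraries, which may be technical. A PBS group at 7 days is not among the samples, so day and treatment cannot be told apart where LPS at 7 days is compared with PBS.

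Precursor cells carry the growth factor receptor PDGFRA and the NG2 proteoglycan and divide slowly throughout adult life. When they leave the cycle they pass through a short stage marked by Gpr17, Enpp6 and Bcas1, and the transcription factors OLIG2, SOX10 and MYRF then drive the myelin program. Mature cells make large amounts of a few membrane proteins and of the glycolipids galactosylceramide and sulfatide, and these genes are prominent in RNA of any tissue with myelinated tracts. The genes were grouped by role into 5 precursor genes, 4 transcription factors used through the lineage, 3 genes of newly formed cells, 12 genes of myelin structure, 4 lipid enzymes, 2 transcription factors of mature cells and 5 further genes abundant in mature cells.

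Libraries held 13211422 to 17210526 gene counts. The level of a gene is its CPM (counts put on a common library total, with TMM factors), with mean ± SD over the 3 libraries of a group, and levels of single genes are set against each other only as FPKM, which also divides by gene length. A gene is said to rise or fall where its edgeR quasi-likelihood p, adjusted over the 14837 genes tested, was under 0.05. All 35 genes passed the filter on low counts. The 3 comparisons are contrasts of 1 fit and share their libraries pairwise, so their values are given side by side and are not independent.

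The groups differed in markers of other tissue and in Y-linked genes as well. A summed list of 8 cerebellar and hindbrain genes stood at 2.64 to 2.998 CPM in PBS and 1.99 to 3.65 CPM in the LPS 1 day group, against 589 to 608 CPM in the LPS 7 day group. The Hox genes Hoxa5, Hoxb5 and Hoxc4 had no count in any 1 day library. Of 7 striatal genes the sum was 1216 to 1258, 797 to 806 and 513 to 528 CPM in the same order, and of 6 thalamic genes 605 to 617, 533 to 552 and 540 to 570 CPM, so striatal markers were present beside thalamic markers in a sample labelled PVT. Of 4 Y-linked genes the sum was 0 to 0.0587 CPM in PBS but 81.4 to 85.2 CPM and 90.5 to 102 CPM in the LPS groups. Sex as read from these genes thus coincides with treatment. The 2 cannot be told apart where either LPS group is compared with PBS. Each comparison below thus runs between libraries that differ in 1 or more of these lists, and their part in the results was not tested.

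**Figure D1:**
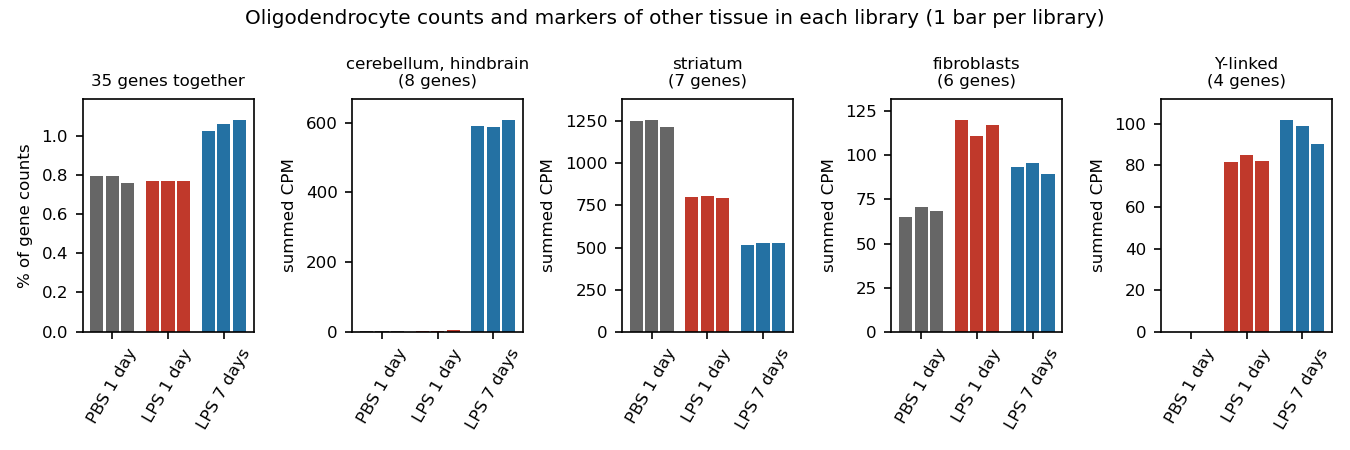
Bars give 1 library each, ordered as PBS, LPS 1 day and LPS 7 days. They show the percent of gene counts taken by the 35 oligodendrocyte genes, then the summed CPM of marker lists of other tissue and of Y-linked genes. The 3 libraries at 7 days are highest both for the 35 genes (1.02% to 1.08%) and for cerebellum and hindbrain (589 to 608 CPM).

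The promoters of 4 members are shown as examples of the courses described below: Ugt8a, a lipid enzyme with a fall and a later rise, Opalin, with the largest fall among myelin structure genes at 1 day, Mobp, which was above PBS at both times, and Apod, with the largest rise of the 35 genes from PBS to 1 day after LPS. Each is the 250 bases before the annotated start, read 5′ to 3′ on the gene's strand, from RefSeq on GRCm38.p6, a build other than that of the count table. Capitals mark ACAANG, a core that SOX factors can bind, searched on both strands, where it may also read CNTTGT.
Ugt8a (chr3:125938653-125938902, minus strand): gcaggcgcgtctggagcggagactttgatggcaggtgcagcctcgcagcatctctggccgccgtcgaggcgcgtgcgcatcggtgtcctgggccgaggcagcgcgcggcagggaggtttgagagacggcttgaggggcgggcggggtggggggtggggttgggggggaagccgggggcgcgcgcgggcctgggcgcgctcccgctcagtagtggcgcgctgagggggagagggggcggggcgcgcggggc
Opalin (chr19:41077114-41077363, minus strand): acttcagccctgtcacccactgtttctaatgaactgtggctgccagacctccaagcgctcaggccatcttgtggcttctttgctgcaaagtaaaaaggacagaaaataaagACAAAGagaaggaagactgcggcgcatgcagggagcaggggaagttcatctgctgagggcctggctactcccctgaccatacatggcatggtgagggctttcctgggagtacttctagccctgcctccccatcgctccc
Mobp (chr9:120149492-120149741, plus strand): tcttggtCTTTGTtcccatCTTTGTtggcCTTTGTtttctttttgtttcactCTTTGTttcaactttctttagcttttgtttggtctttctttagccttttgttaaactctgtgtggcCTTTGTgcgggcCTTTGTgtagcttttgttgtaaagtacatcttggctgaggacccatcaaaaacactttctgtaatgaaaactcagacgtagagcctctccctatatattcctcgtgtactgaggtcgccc
Apod (chr16:31314809-31315058, minus strand): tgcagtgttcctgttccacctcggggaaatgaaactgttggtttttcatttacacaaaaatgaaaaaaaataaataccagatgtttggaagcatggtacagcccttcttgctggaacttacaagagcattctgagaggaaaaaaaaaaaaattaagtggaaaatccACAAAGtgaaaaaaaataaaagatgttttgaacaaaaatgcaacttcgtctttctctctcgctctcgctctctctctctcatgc

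The 250 bases of Mobp held 6 matches to this core, those of Opalin and Apod 1 each and those of Ugt8a 0. The base composition differed as well, with 76.8% G and C for Ugt8a, 54.4% for Opalin, 40.8% for Mobp and 36.4% for Apod. RefSeq promoters were found for 26 of the 35 members (37 promoters). Of these promoters 23 (62.2%) held the core, against 36.3% of 32851 promoters of the same length. Sox6, Mag, Gal3st1, Klk6 and Tspan2 had more than 1 promoter each, and some of these share bases. The 37 are therefore not separate genes, and no share per gene was computed. An E-box searched as CAGCTG, a palindrome that bHLH factors can bind, was in 3 (8.11%) of the members' promoters and in 13.0% of all. A match describes letters and is not evidence of binding.

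Levels per gene length in PBS spanned from 431 ± 22.3 FPKM for Mbp, which encodes the protein that compacts the inner faces of myelin, to 0.768 ± 0.139 FPKM for Pllp, a proteolipid of myelin membranes. Mobp, a basic protein of compact myelin, followed Mbp at 120 ± 4.87 FPKM, and Cldn11, the claudin of myelin tight junctions, at 105 ± 6.36 FPKM. Cnp (93.8 ± 3.28 FPKM), a cytoskeleton-linked enzyme of uncompacted myelin, and Trf (91.9 ± 3.76 FPKM), the iron carrier transferrin, did not differ beyond their spread, nor did Olig1 (81.0 ± 4.22 FPKM) and Car2 (80.8 ± 3.31 FPKM). Among precursor genes Ptprz1, a receptor phosphatase that astrocytes express too, had 25.3 ± 0.328 FPKM, Pdgfra 8.51 ± 0.364 FPKM and Cspg4, which encodes NG2, 2.68 ± 0.277 FPKM. The order within this chosen list was thus led by myelin genes.

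**Figure D2:**
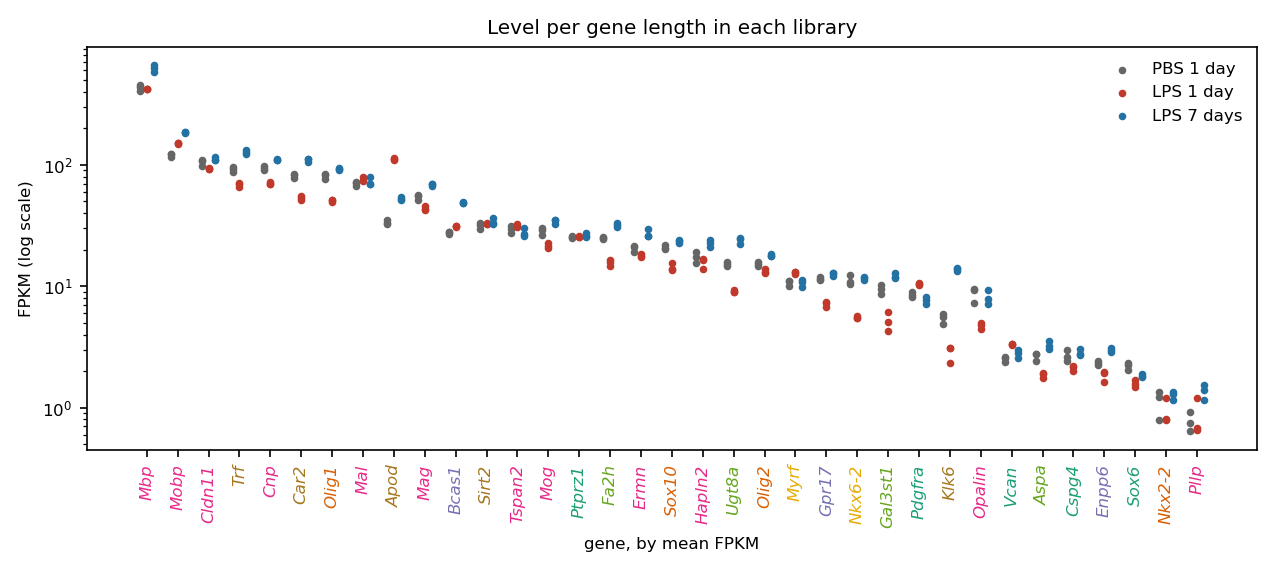
Points give the deposited FPKM (log axis) of each of the 35 genes in each of the 9 libraries, ordered by mean, with gene names coloured by group of genes as in the plots by library. Mbp lies highest in every library and Pllp or Nkx2-2 lowest, and Apod moves up the order 1 day after LPS (111 ± 2.19 FPKM against 33.7 ± 1.24 FPKM in PBS).

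The 35 genes together took 0.758% to 0.793% of gene counts in PBS, 0.769% to 0.770% 1 day after LPS and 1.02% to 1.08% at 7 days. Mbp alone made up 0.344% to 0.381%, 0.357% to 0.359% and 0.493% to 0.558%. The summed share at 1 day lay within the range of PBS, while single members moved in both directions. Tissue RNA cannot tell fewer cells of a type from less RNA per cell, which holds for every value below.

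Between LPS and PBS at 1 day, the question is which steps of the lineage differ soon after systemic LPS. Of 35 genes 21 fell, 8 rose and 6 did not pass, with a median log2 fold change of -0.30, while over all genes tested 24.2% fell, 24.9% rose and the median was -0.01. Counting only changes of at least 0.5 on the log2 scale, 10 of the 35 fell and 1 rose, against 6.96% and 8.71% of all genes. By role the median log2 fold change was -0.69 for lipid enzymes, -0.40 for further mature genes, -0.38 for lineage transcription factors, -0.36 for mature transcription factors, -0.32 for newly formed cells, -0.14 for myelin structure and 0.04 for precursors. The same counts were found in a fit on the 6 libraries of 1 day alone (21 down, 8 up).

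All 4 lipid enzyme genes fell 1 day after LPS. Ugt8a, the transferase that makes galactosylceramide, had 66.8, 69.5 and 71.3 CPM in PBS and 43.0, 40.9 and 41.2 CPM after LPS. Every LPS library was below every PBS library, a log2 fold change of -0.73 ± 0.06 (SE, edgeR adjusted p = 3.94e-15). Gal3st1, which adds the sulfate that turns galactosylceramide into sulfatide, had 19.5, 17.6 and 21.1 CPM against 10.6, 12.6 and 8.88 CPM. The groups again did not overlap (-0.86 ± 0.11, edgeR adjusted p = 4.15e-09). Fa2h, the hydroxylase that makes 2-hydroxy fatty acids for myelin lipids, had 77.8, 74.4 and 74.6 CPM against 50.3, 45.1 and 48.7 CPM. Aspa, which frees acetate from N-acetylaspartate, had 14.5, 16.5 and 16.6 CPM against 10.6, 11.7 and 11.5 CPM. Neither gene's ranges overlap (-0.66 ± 0.06 and -0.49 ± 0.11, edgeR adjusted p = 7.59e-14 and 0.000152).

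Genes of myelin structure did not move as a block: 6 of 12 fell, 3 rose and 3 did not pass. Mbp had 3854, 3693 and 3450 CPM in PBS and 3635, 3654 and 3629 CPM after LPS. The LPS values lie inside the PBS range, and the log2 fold change of -0.01 ± 0.04 did not pass (edgeR adjusted p = 0.827). Mobp had 853, 847 and 788 CPM in PBS and 1028, 1050 and 1054 CPM after LPS, so all 3 LPS libraries were higher (0.33 ± 0.03, edgeR adjusted p = 9.6e-12). Cnp went the other way, with 334, 355 and 340 CPM against 265, 257 and 258 CPM. That fall, -0.40 ± 0.04, also left the groups apart (edgeR adjusted p = 6.62e-13). Cnp shares 8912 bases with Dnajc7 on the other strand, whose log2 fold change of 0.07 did not pass. Cnp had a mean of 5282 counts a library and Dnajc7 1626. Without the strand of the reads, those from the shared bases cannot be told apart. Tspan2 with Tshb (7254 bases), Ermn with Galnt5 (748 bases) and Sirt2 with Nfkbib (778 bases) overlap on opposite strands too. Mean counts a library were 2222 for Tspan2 and 48.9 for Tshb, 1263 for Ermn and 9.89 for Galnt5. They were 2621 for Sirt2 and 372 for Nfkbib. These overlaps run between annotated start and end sites and may include introns. How far reads were shared was not tested.

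Opalin, a transmembrane glycoprotein of mature oligodendrocytes picked after its values were seen, had 27.7, 28.0 and 21.5 CPM in PBS and 14.9, 13.3 and 14.3 CPM after LPS. This was the largest fall among the 12 structure genes (-0.87 ± 0.10, edgeR adjusted p = 5.86e-10). Mog, a surface glycoprotein of the outermost myelin layer, fell by 0.40 ± 0.07 on the log2 scale, and Cldn11 by 0.15 ± 0.04. Mag, the adhesion molecule of the layer next to the axon, had 211, 227 and 231 CPM in PBS and 180, 175 and 190 CPM after LPS, and Ermn, a cytoskeletal protein of myelinating cells, 77.4, 78.6 and 69.7 against 65.95, 63.7 and 68.5 CPM. The Mag groups were well apart and the Ermn groups narrowly so (-0.30 ± 0.04 and -0.19 ± 0.06, edgeR adjusted p = 8.4e-08 and 0.00574). Against most of these genes, Mal, a raft proteolipid, rose from 189, 201 and 199 CPM to 224, 212 and 207 CPM (0.13 ± 0.04). Tspan2, a tetraspanin, rose from 131, 149 and 141 CPM to 148, 152 and 158 CPM (0.12 ± 0.05), and its ranges overlap. Hapln2, a link protein of the node of Ranvier, and Pllp did not pass (-0.13 ± 0.08 and 0.13 ± 0.30). Pllp rested on 21 to 33 counts a library here. Both small rises depended on single libraries: the edgeR adjusted p of Mal was 0.122 without LPS 1 day replicate 1 and 0.0869 without PBS replicate 1. That of Tspan2 was 0.279 without PBS replicate 1, 0.0535 without PBS replicate 3, 0.0801 without LPS 1 day replicate 2 and 0.186 without LPS 1 day replicate 3. DESeq2 gave Tspan2 an adjusted p of 0.0927, and edgeR adjusted p-values of 0.085 and 0.0924 followed from library totals and upper-quartile scaling. Hapln2 passed without PBS replicate 1 (-0.20, edgeR adjusted p = 0.0355).

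Transcription factors of the lineage fell in 3 of 4 cases. Olig1 and Olig2, neighbouring bHLH genes on chromosome 16 with 41094 bases between them (GRCm39), differed in size of change. Olig1 had 167, 179 and 182 CPM in PBS and 113, 112 and 109 CPM after LPS, while Olig2 had 40.3, 37.4 and 38.8 CPM against 32.8, 33.4 and 35.4 CPM. Neither gene's groups overlap, with log2 fold changes of -0.66 ± 0.04 for Olig1 and -0.20 ± 0.07 for Olig2 (edgeR adjusted p = 1.34e-17 and 0.0159). The difference between the 2 genes was not tested. The Olig2 call was lost without PBS replicate 1, LPS 1 day replicate 1 or LPS 1 day replicate 2 (edgeR adjusted p = 0.0699, 0.0552 and 0.0502). Sox10, which switches on myelin genes, had 67.2, 62.4 and 62.5 CPM in PBS and 42.7, 42.5 and 48.4 CPM after LPS, all 3 lower (-0.52 ± 0.06, edgeR adjusted p = 5.95e-10). Nkx2-2, a homeobox gene of differentiating precursors, had 30 to 62 counts in any library and did not pass (-0.23 ± 0.24).

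The 2 transcription factors of mature cells moved in opposite directions. Nkx6-2, a homeobox gene of myelinating cells, had 19.97, 20.7 and 23.6 CPM in PBS and 10.6, 10.6 and 11.1 CPM after LPS. No LPS library reached the PBS range, and this was the largest fall of the 35 genes (-0.99 ± 0.10, edgeR adjusted p = 8.17e-12). Myrf, the factor that maintains the myelin program, rose instead, from 95.5, 86.9 and 94.8 CPM to 113, 114 and 109 CPM, again with no overlap (0.28 ± 0.05, edgeR adjusted p = 1.43e-05). Nkx6-2 shares 277 bases with Inpp5a on the other strand. Inpp5a did not pass at 1 day (-0.08), and whether the counting used strand is not given in the sources used here.

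Newly formed cells were read from 3 genes, of which 2 fell and 1 rose at 1 day. Gpr17, a receptor of cells about to differentiate, had 59.5, 59.6 and 61.5 CPM in PBS and 39.2, 38.5 and 35.5 CPM after LPS. The groups stand well apart (-0.68 ± 0.06, edgeR adjusted p = 4.24e-13). It lies inside Lims2, whose exons are on the other strand and whose counts changed by -0.79. Lims2 averaged 10.3 ± 0.966 CPM in PBS and 6.01 ± 1.08 CPM after LPS. Gpr17 had a mean of 859 counts a library and Lims2 141. Without the strand of the reads, those from the shared bases cannot be told apart, and how far reads were shared was not tested. Enpp6, a choline phosphodiesterase of new oligodendrocytes, fell from 14.6, 14.9 and 15.5 CPM to 12.9, 10.6 and 12.7 CPM (-0.32 ± 0.11, edgeR adjusted p = 0.0115), but not without LPS 1 day replicate 2 (edgeR adjusted p = 0.101). Bcas1, a marker of early myelinating cells, was higher in every LPS library, at 120, 121 and 119 CPM against 107, 107 and 101 CPM (0.19 ± 0.05, edgeR adjusted p = 0.00038).

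Precursor genes split 1 day after LPS, with 2 up, 2 down and 1 not passed of 5. Pdgfra had 82.8, 85.01 and 89.4 CPM in PBS and 106, 105 and 109 CPM after LPS, and Vcan, a matrix proteoglycan, 34.7, 37.6 and 37.0 against 49.5, 48.7 and 48.4 CPM. All LPS libraries were higher for both (0.32 ± 0.05 and 0.42 ± 0.07, edgeR adjusted p = 9.53e-07 and 6.47e-07). Cspg4 had 29.4, 31.4 and 35.7 CPM against 26.8, 24.4 and 26.3 CPM. Sox6, a factor that holds cells in the precursor state and that some neurons express, had 34.9, 30.2 and 33.4 CPM against 23.7, 25.2 and 22.2 CPM. Both fell without overlap (-0.31 ± 0.08 and -0.47 ± 0.08, edgeR adjusted p = 0.00111 and 2.95e-06). Ptprz1, with 370, 358 and 360 against 369, 370 and 377 CPM, overlapped and did not pass (0.04 ± 0.04, edgeR adjusted p = 0.422). Fibroblasts of vessels and meninges also express Pdgfra, Vcan and Apod, and 5 of 6 fibroblast markers rose in the same libraries and 1 did not pass. Their sum went from 65.1 to 70.7 CPM in PBS to 111 to 120 CPM, with none at 0, and their part in these rises was not tested. Markers of dividing cells stayed low (4.84 to 6.14 CPM for 5 genes in PBS and 7.60 to 7.78 CPM after LPS), and of the 2 that were tested Mki67 rose and Top2a did not pass.

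Of the 5 further genes abundant in mature cells 3 fell, 1 rose and 1 did not pass at 1 day. Apod, a lipid-binding apolipoprotein, had 84.8, 90.4 and 86.3 CPM in PBS and 292, 296 and 285 CPM after LPS. The lowest LPS library was above every PBS library, a 3.34-fold level (log2 1.74 ± 0.04, edgeR adjusted p = 2.07e-35). Klk6, a secreted protease of mature oligodendrocytes, had 8.57, 7.40 and 8.99 CPM against 3.62, 4.79 and 4.74 CPM. It fell by 0.91 ± 0.14 on the log2 scale without overlap (edgeR adjusted p = 7.3e-07). Car2, the cytosolic carbonic anhydrase, had 199.7, 203 and 187 CPM in PBS and 136, 131 and 126 CPM after LPS, and Trf 295, 316 and 309 against 235, 223 and 237 CPM. Both fell with all LPS libraries below PBS (-0.59 ± 0.04 and -0.40 ± 0.04, edgeR adjusted p = 2.31e-16 and 2.71e-12). Sirt2, a tubulin deacetylase of myelin, did not pass (0.07 ± 0.05, edgeR adjusted p = 0.225). Trf is also made by choroid plexus, where 7 markers summed to 452 to 514 CPM in PBS and 475 to 491 CPM 1 day after LPS.

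**Figure D3:**
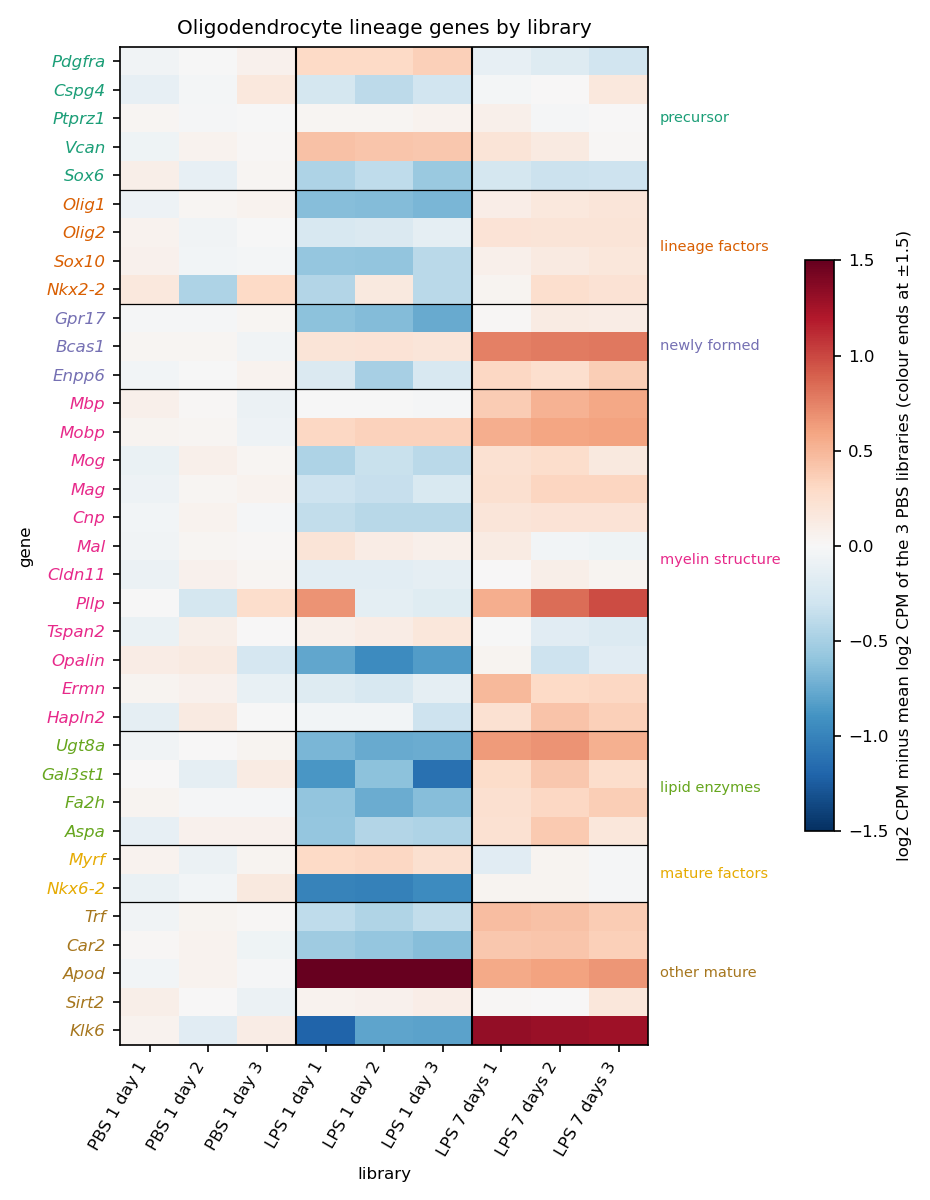
Colour gives, for each of the 35 genes (rows, grouped by role) in each of the 9 libraries (columns), log2 CPM minus the mean log2 CPM of the 3 PBS libraries. Blue rows for lipid enzymes, Olig1, Gpr17 and Nkx6-2 in the LPS 1 day columns stand beside red rows for Apod, Mobp, Pdgfra, Vcan and Myrf, and most rows are red at 7 days.

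For the later time the LPS 7 day libraries were set against the same PBS libraries. Of 35 genes 20 rose, 3 fell and 12 did not pass, with a median log2 fold change of 0.20, where 16.8% of all genes rose, 18.9% fell and the median was 0.00. By at least 0.5 on the log2 scale 6 rose and 0 fell, against 5.57% and 5.82% of all genes, and the lowest value by edgeR was -0.30. Rises were found in all roles except precursors and the mature transcription factors. The hindbrain, striatal and Y-linked lists differ in this comparison too. The 5 Schwann cell markers summed to 88.6 to 98.8 CPM in PBS and 77.0 to 81.4 CPM at 7 days, mostly Drp2. Of the 4 that were tested 1 rose, 1 fell and 2 did not pass, Pmp2 had no count in any library, and their part in the rises was not tested.

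Myelin structure genes were higher at 7 days in 8 of 12 cases, lower in 1 and did not pass in 3. Mbp stood at 4778, 5244 and 5494 CPM, all above the 3 PBS values given above (0.50 ± 0.04, edgeR adjusted p = 4.43e-17). Mobp stood at 1213, 1250 and 1256 CPM, above PBS and also above 1 day after LPS (0.58 ± 0.03 against PBS, edgeR adjusted p = 1.74e-20). Mag had 264, 279 and 278 CPM, Cnp 388, 397 and 395 CPM and Ermn 105, 92.1 and 92.8 CPM. Each of these lay above PBS (0.30 ± 0.04, 0.20 ± 0.04 and 0.36 ± 0.06), and Mog and Hapln2 rose by 0.21 ± 0.06 and 0.34 ± 0.07. Pllp rose on 38, 46 and 53 counts against 27, 21 and 28 (0.79 ± 0.28, edgeR adjusted p = 0.021). Its call was lost without PBS replicate 1 or 2 (edgeR adjusted p = 0.0554 and 0.0927), without LPS 7 day replicate 2 or 3 (0.0551 and 0.0896) and by DESeq2 (adjusted p = 0.057). Mal, Cldn11 and Opalin did not pass (0.01 ± 0.04, 0.04 ± 0.04 and -0.15 ± 0.09), but Opalin fell without PBS replicate 3 (-0.25, edgeR adjusted p = 0.0428) or LPS 7 day replicate 1 (-0.25, edgeR adjusted p = 0.0493). Tspan2 was lower (-0.13 ± 0.05, edgeR adjusted p = 0.0415) with overlapping ranges. This call was lost without PBS replicate 2 or 3 (edgeR adjusted p = 0.265 and 0.122), LPS 1 day replicate 2 or 3 (0.0541 and 0.0519) or LPS 7 day replicate 2 or 3 (0.174 and 0.23). It was lost as well by DESeq2 (adjusted p = 0.111), library totals (edgeR adjusted p = 0.184) and a fit on the 2 groups alone (edgeR adjusted p = 0.0799). Mog did not pass without PBS replicate 1 (edgeR adjusted p = 0.0648).

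All 4 lipid enzyme genes were above PBS at 7 days. Ugt8a had 108, 110 and 100 CPM, beyond every PBS library (0.62 ± 0.05, edgeR adjusted p = 2.41e-14). Gal3st1 (23.5, 25.6 and 23.3 CPM) and Fa2h (89.2, 93.8 and 97.3 CPM) were higher by 0.31 ± 0.10 and 0.31 ± 0.05, and Aspa (18.6, 20.8 and 17.9 CPM) by 0.27 ± 0.10. The call for Gal3st1 was lost without PBS replicate 2 or LPS 7 day replicate 2 (edgeR adjusted p = 0.0654 and 0.0539). That for Aspa was lost without PBS replicate 1 or LPS 7 day replicate 2 (0.16 and 0.17) and by DESeq2 (adjusted p = 0.0667).

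Bcas1 had 177, 179 and 182 CPM at 7 days against 107, 107 and 101 CPM in PBS, and was the member of the newly formed group with the largest difference. The groups are far apart relative to their spread (0.77 ± 0.04, edgeR adjusted p = 6.07e-21). Enpp6 was higher too (0.31 ± 0.10), whereas Gpr17, at 61.01, 65.4 and 65.2 CPM, overlapped PBS and did not pass (0.09 ± 0.06). Among lineage factors Olig1 and Olig2 rose by 0.15 ± 0.04 and 0.20 ± 0.07, and Sox10 and Nkx2-2 did not pass (0.12 ± 0.06 and 0.14 ± 0.22). The Olig1 call was lost without PBS replicate 1 (edgeR adjusted p = 0.0696) and that of Olig2 without PBS replicate 2 (0.0677). Sox10 passed without PBS replicate 1 (0.16, edgeR adjusted p = 0.0478) and with library totals (0.16, edgeR adjusted p = 0.0211). Nkx6-2 and Myrf did not pass (0.02 ± 0.09 and -0.05 ± 0.05), with Nkx6-2 at 21.99, 21.95 and 21.2 CPM, inside the PBS range. The overlapping gene Inpp5a rose by 0.86 in this comparison.

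Precursor genes did not rise at 7 days: 2 of 5 fell and 3 did not pass. Pdgfra had 78.5, 74.9 and 70.1 CPM, all below PBS (-0.20 ± 0.05, edgeR adjusted p = 0.00155), and Sox6 27.4, 26.2 and 26.5 CPM, also below (-0.30 ± 0.08, edgeR adjusted p = 0.00183). Cspg4, Ptprz1 and Vcan did not pass (0.05 ± 0.08, 0.02 ± 0.04 and 0.12 ± 0.07). Klk6 had the largest difference of the 35 genes, with 20.6, 20.4 and 20.05 CPM at 7 days. Every one of these libraries was above every PBS library, a 2.45-fold level (1.29 ± 0.11, edgeR adjusted p = 8.71e-14). Apod stood at 129, 132 and 138 CPM, between its values in PBS and 1 day after LPS (0.61 ± 0.05 against PBS, edgeR adjusted p = 1.59e-16). Trf, at 424, 415 and 398 CPM, and Car2, at 259, 263 and 252 CPM, were higher (0.43 ± 0.04 and 0.39 ± 0.04) and Sirt2 did not pass (0.06 ± 0.05). Fibroblast markers summed to 89.3 to 95.5 CPM at 7 days, with 4 of 6 above PBS and 2 not passed. Choroid plexus markers summed to 351 to 362 CPM, with 6 of 7 below PBS and 1 not passed.

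**Figure D4:**
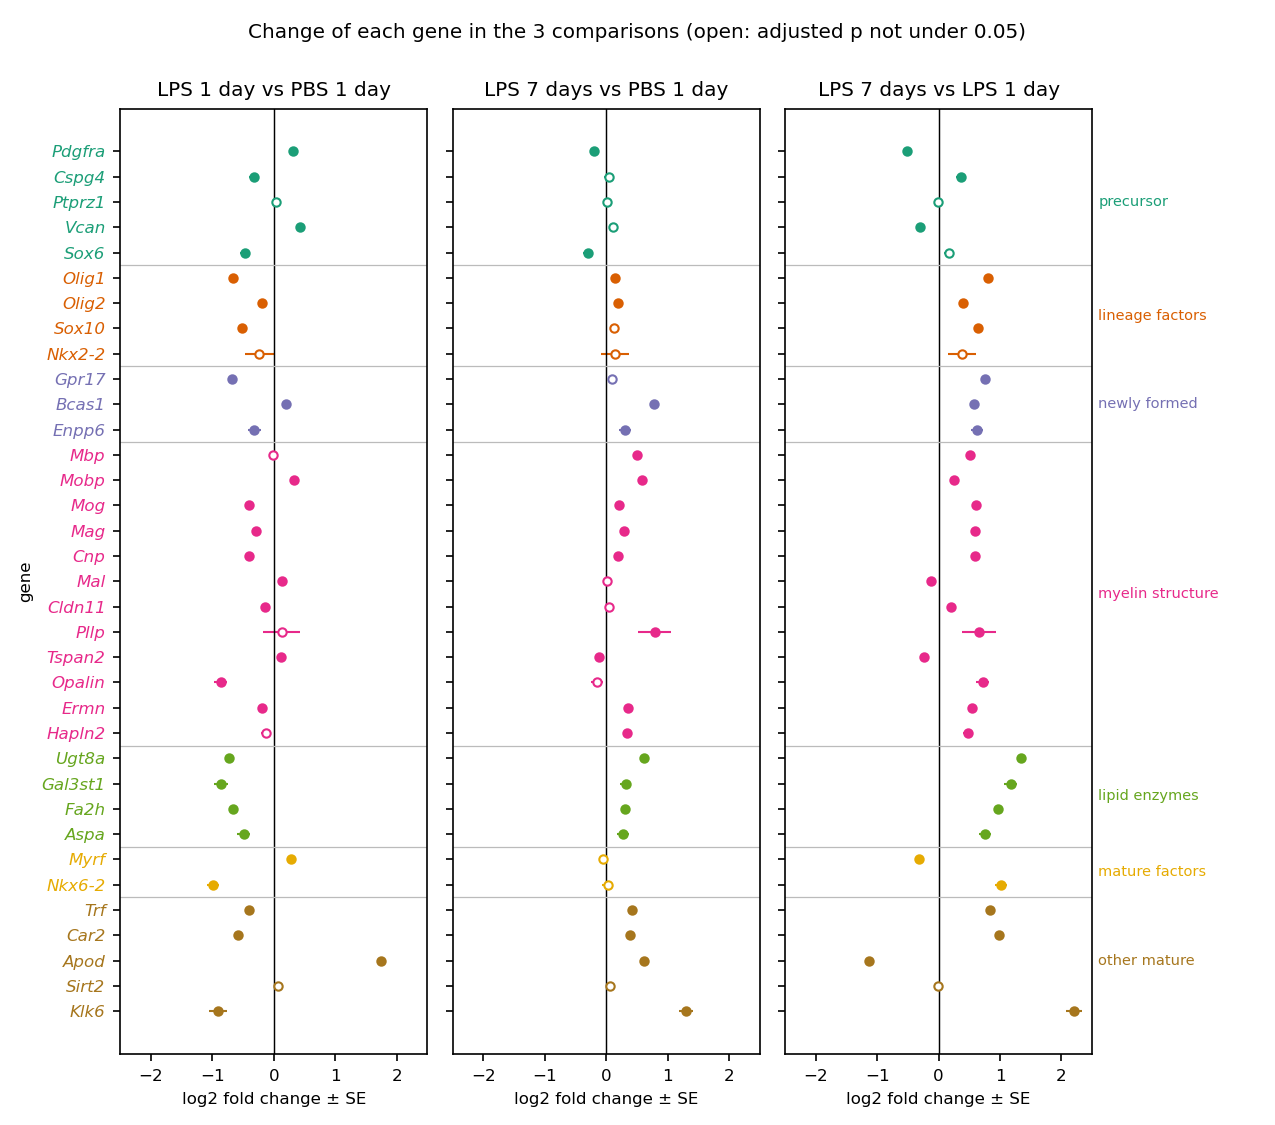
Points give the log2 fold change of each of the 35 genes with its SE in the 3 comparisons, coloured by role, filled where the edgeR adjusted p was under 0.05. Lipid enzymes lie left of 0 at 1 day and right of 0 at 7 days, Apod is the point farthest right at 1 day (1.74) and Klk6 at 7 days (1.29 against PBS and 2.20 against 1 day).

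The 2 LPS groups were also compared directly. Of 35 genes 25 rose, 6 fell and 4 did not pass, with a median log2 fold change of 0.58, where 27.5% of all genes rose, 29.1% fell and the median was -0.00. By at least 0.5 on the log2 scale 20 rose and 2 fell, against 10.7% and 11.4% of all genes. Both sides were LPS libraries with Y-linked counts, but the cerebellar and hindbrain list differed fully between them, with all 7 tested members higher at 7 days. Of 7 striatal markers 5 were lower at 7 days, 0 higher and 2 did not pass. Of 7 choroid plexus markers 6 were lower, 0 higher and 1 did not pass. The part of these lists in the changes below was not tested.

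All 4 lipid enzyme genes and all 3 genes of newly formed cells rose between the 2 times, as did 10 of 12 structure genes. Ugt8a reached 2.55 times its 1 day level (1.35 ± 0.06, edgeR adjusted p = 1.44e-26) and Gal3st1 2.26 times (1.17 ± 0.11, edgeR adjusted p = 8.96e-14). Klk6 reached 4.59 times (2.20 ± 0.13, edgeR adjusted p = 1.18e-20), and Car2 and Trf 1.97 and 1.78 times. Gpr17 and Nkx6-2, both far below PBS at 1 day, differed by 0.76 ± 0.06 and 1.01 ± 0.10. Lims2, which overlaps Gpr17, rose by 0.79 ± 0.14 between the times. Inpp5a, which overlaps Nkx6-2, was above PBS at 7 days as given above. Its mean was 1543 counts a library, against 286 for Nkx6-2. The part of Lims2 and Inpp5a in these 2 values was not tested. Olig1, Sox10 and Olig2 rose by 0.80 ± 0.04, 0.65 ± 0.06 and 0.39 ± 0.07. Mbp and Mobp rose by 0.51 ± 0.04 and 0.25 ± 0.03, Mag by 0.59 ± 0.04 and Cnp by 0.60 ± 0.04.

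The 6 genes that fell from 1 to 7 days were Apod, Pdgfra, Myrf, Vcan, Tspan2 and Mal. Apod fell by 1.13 ± 0.04 and Pdgfra by 0.52 ± 0.05 on the log2 scale (edgeR adjusted p = 1.57e-28 and 2.06e-12). Myrf and Vcan fell by 0.33 ± 0.05 and 0.31 ± 0.07, and Tspan2 by 0.24 ± 0.05. For Mal (-0.12 ± 0.04) the ranges overlap. That call was lost without LPS 1 day replicate 1 (edgeR adjusted p = 0.14), LPS 7 day replicate 2 (0.129) or LPS 7 day replicate 3 (0.14). It was also lost by DESeq2 (adjusted p = 0.0568) and with library totals or upper-quartile scaling (edgeR adjusted p = 0.241 and 0.0613). Pllp rose by 0.66 ± 0.27 with overlapping ranges, and its edgeR adjusted p was 0.154 and 0.168 without LPS 1 day replicate 2 or 3, 0.0803 and 0.131 without LPS 7 day replicate 2 or 3, and 0.0918 by DESeq2. Of the 4 that did not pass, Sirt2, Ptprz1 and Nkx2-2 had values of -0.00 ± 0.05, -0.02 ± 0.04 and 0.38 ± 0.23. Sox6, at 0.17 ± 0.08, passed without LPS 1 day replicate 2 (edgeR adjusted p = 0.0415) and with library totals or upper-quartile scaling (0.0152 and 0.0396).

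Stages were compared within each library by averaging log2 CPM over the genes of a role. Precursor genes averaged 6.01 to 6.08 in PBS, 6.03 to 6.04 1 day after LPS and 5.95 to 6.004 at 7 days, a range of little more than 0.1. In their 1 day average the rises of Pdgfra and Vcan stand against the falls of Cspg4 and Sox6. Lipid enzymes averaged 5.13 to 5.21, 4.42 to 4.52 and 5.49 to 5.60, so the 3 groups did not overlap. Structure genes averaged 6.87 to 6.94, 6.73 to 6.81 and 7.15 to 7.16, newly formed genes 5.504 to 5.53, 5.21 to 5.30 and 5.87 to 5.94, and lineage factors 4.99 to 5.19, 4.64 to 4.79 and 5.22 to 5.30, each in the same order of groups. The 2 mature transcription factors averaged 5.41 to 5.57, 5.13 and 5.41 to 5.52, with only the 1 day LPS libraries apart. The 5 further mature genes averaged 6.54 to 6.56, 6.49 to 6.55 and 7.10 to 7.11, where the rise of Apod stands against the falls of Klk6, Car2 and Trf at 1 day.

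The mean of the lipid enzymes minus that of the structure genes was taken in each library. Both are log2 CPM with no correction for gene length, so the size of such a difference carries the lengths of the genes, which are the same in every library, and only its shift between groups is described. This difference was -1.80 to -1.67 in PBS, -2.33 to -2.21 in the LPS 1 day libraries and -1.66 to -1.55 in those of 7 days. The 1 day LPS libraries thus stood apart from the other 6, and a median over genes gave the same order of groups (means of -2.17, -2.90 and -1.73). The mean of the structure genes minus that of the precursor genes was 0.805 to 0.934, 0.703 to 0.768 and 1.15 to 1.21 in the same order. The place of 7 days here depends on the summary: by medians over genes the means were 2.18 in PBS, 1.75 at 1 day and 1.99 at 7 days, so PBS was highest. These averages over chosen genes are descriptions and were given no test.

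**Figure D5:**
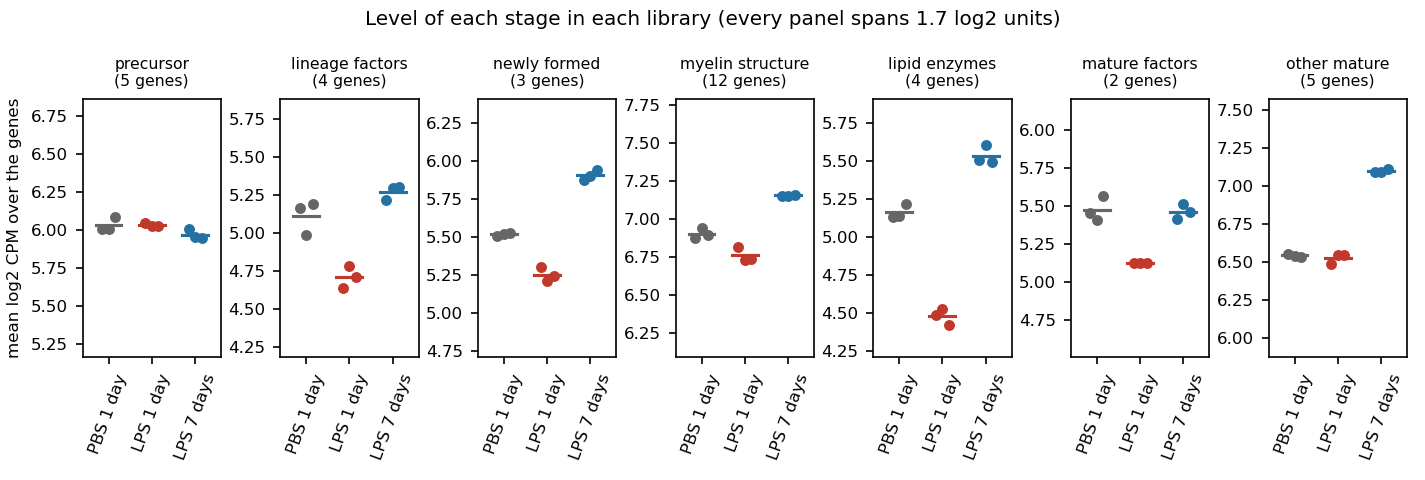
Points give, for each role, the mean log2 CPM over its genes in each of the 9 libraries (3 points a group, with the group mean as a line), and every panel spans the same height. Lipid enzymes show the widest gap between LPS at 1 day (4.42 to 4.52) and 7 days (5.49 to 5.60). The mean of the precursor genes, which moved in both directions at 1 day, has the narrowest spread.

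Other genes of the lineage, taken from lists written beside the members, were counted in the same fit. Over all genes tested 24.9% rose and 24.2% fell at 1 day, and 16.8% and 18.9% at 7 days against PBS. From 1 to 7 days 27.5% rose and 29.1% fell. Of 22 further genes of mature oligodendrocytes 20 fell, 0 rose and 2 did not pass at 1 day (median -0.50). At 7 days 13 were above PBS, 3 below and 6 did not pass (median 0.25), and from 1 to 7 days 20 rose, 0 fell and 2 did not pass (median 0.73). Gjb1, a gap junction gene of myelinating cells, had the largest log2 difference of these 22 genes between the LPS groups. Gjb1 had 26.0, 29.3 and 25.0 CPM in PBS, against 10.9, 13.5 and 13.8 CPM in the LPS 1 day libraries and 35.6, 38.2 and 41.8 CPM in those of 7 days. No 2 groups overlap for this gene. Its change was -1.06 ± 0.10 at 1 day and 1.59 ± 0.09 from 1 to 7 days (edgeR adjusted p = 2.3e-13 and 8.53e-21). Plekhb1, a membrane protein abundant in myelinating cells, changed by -0.19 ± 0.04 and then by 0.61 ± 0.04.

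Of 8 further precursor genes 1 rose, 4 fell and 3 did not pass at 1 day (median -0.24). Against PBS 0 rose, 2 fell and 6 did not pass at 7 days (median -0.08). From 1 to 7 days 5 rose, 2 fell and 1 did not pass (median 0.26). Of the 5 precursor members 1 rose, 2 fell and 2 did not pass there (median -0.02). The shares over all genes at 1 day were 24.9% up and 24.2% down, and between the times 27.5% and 29.1%. C1ql1, a secreted protein of precursors that some neurons make, averaged 10.1 ± 1.20 CPM in PBS, against 5.60 ± 0.671 CPM in the LPS 1 day group and 11.4 ± 0.701 CPM in that of 7 days. Cacng4, an AMPA receptor partner that neurons express too, fell by 0.81 ± 0.06 at 1 day and was still lower at 7 days (-0.58 ± 0.06 against PBS). Lrrn1, a membrane protein with leucine-rich repeats, fell by 0.28 ± 0.05 and rose by 0.39 ± 0.05 from 1 to 7 days. Of 7 tested genes of newly formed cells 4 rose, 1 fell and 2 did not pass at 1 day. Their median was 0.19, where that of the 3 members of this role was -0.32. At 7 days against PBS 3 rose, 0 fell and 4 did not pass (median 0.12). From 1 to 7 days 2 rose, 2 fell and 3 did not pass (median -0.08), whereas all 3 members of that role rose. Itpr2, a calcium release channel, rose by 0.32 ± 0.08 at 1 day, Mpzl1 by 0.44 ± 0.08 at 7 days against PBS, and Lims2 fell by 0.79 ± 0.14 at 1 day.

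Signals that act on the lineage gave no common direction, and most of their counts lay near the shares over all genes. Of all genes tested 24.9% rose and 24.2% fell at 1 day, and 16.8% and 18.9% at 7 days against PBS. Between the times 27.5% rose and 29.1% fell. Of 16 tested genes 4 rose, 6 fell and 6 did not pass at 1 day (median -0.07), 3 rose, 3 fell and 10 did not pass at 7 days against PBS (median -0.06), and 5 rose, 6 fell and 5 did not pass between the times (median -0.14). Rxrg, a retinoid X receptor of differentiating oligodendrocytes that striatal neurons also express, had 23.1, 24.4 and 22.3 CPM in PBS, against 9.09, 10.2 and 9.37 CPM in the LPS 1 day libraries and 6.25, 7.65 and 8.22 CPM in those of 7 days. Both LPS groups lay below PBS (-1.28 ± 0.11 and -1.66 ± 0.11, edgeR adjusted p = 2.97e-14 and 4.43e-18). The striatal sum given above has the same order of groups, and the part of striatal tissue in the Rxrg values was not tested. Lingo1, an inhibitor of differentiation that neurons express, did not pass at 1 day (0.05 ± 0.04) and was lower at 7 days (-0.57 ± 0.04, edgeR adjusted p = 4.33e-17). Lpar1, a lysophosphatidic acid receptor of myelinating cells, changed by -0.35 ± 0.07 at 1 day and 0.58 ± 0.07 from 1 to 7 days.

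Markers of other cells were counted in the same libraries. At 1 day 24.9% of all genes tested rose and 24.2% fell, and from 1 to 7 days 27.5% and 29.1%. Of 9 astrocyte markers 6 rose, 2 fell and 1 did not pass at 1 day (summed 3657 to 3771 CPM in PBS and 4115 to 4145 CPM after LPS), and their sum at 7 days was 4063 to 4141 CPM. Of 8 microglial markers 2 rose, 2 fell and 4 did not pass at 1 day (242 to 258 against 248 to 264 CPM), and their sum at 7 days was 241 to 246 CPM. Of 7 endothelial markers 4 rose and 3 fell at 1 day. Their sum was 242 to 246 CPM in PBS, 295 to 304 CPM 1 day after LPS and 289 to 309 CPM 7 days after LPS. The 7 general neuronal markers summed to 5754 to 5960, 5983 to 6112 and 5658 to 5867 CPM. Of these 3 rose, 3 fell and 1 did not pass at 1 day, and 4 rose, 2 fell and 1 did not pass from 1 to 7 days. How far these lists share in the values of the 35 genes was not tested.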

How the data were processed

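Trizol RNA and TruSeq RNA libraries are described per the labels. The authors deposited raw counts per gene and FPKM values (counts scaled by gene length and library total) for 9 libraries. The submitters' processing notes name TopHat2, HISAT2, HTSeq and GRCm39; the sources used here give no versions, strandedness or filters. Recomputing the deposited FPKM from counts, lengths and totals left a largest relative difference of 1.58e-07. Gene lengths and positions, which are other values, were used as deposited.

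The 9 libraries were fitted together with edgeR 4.0.16 (R 4.3.3) by filterByExpr, TMM, group means and quasi-likelihood tests (common biological coefficient of variation 4.15%, 6 residual and 43.4 prior degrees of freedom), with Benjamini-Hochberg adjustment over 14837 genes. SE is the absolute log2 fold change over the square root of F. Role averages used log2 CPM with a prior count of 2. The fit was tested on simulated data.

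Members, lists, roles and tests were chosen with earlier results of these data known. All 35 members are reported. Library values are given for up to 5 members a role by smallest adjusted p over the 3 contrasts, for members that moved against most of their role and for the highest and lowest FPKM. Other lineage lists give up to 3 genes by smallest adjusted p, and other cell types their summed lists; some genes that this rule names are left out. Opalin's library values, Pmp2, Mki67, Top2a, the Hox genes and overlapping genes were added after their values were seen. Of the listed genes, 2 matched no row or 2 rows and were left out. Alternatives were DESeq2 1.42.0, other scalings, no filter, only the 2 groups compared, a replicate block and leaving out each library.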

Additional observations from a re-analysis of the deposited data

How the results depend on the processing

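Counts of changed members were recomputed under DESeq2, library totals, upper-quartile scaling, no filter, only the 2 groups compared, the replicate block and without each library in turn, and were within 1.5 times the reported count, with 1 exception. The number lower by at least 0.5 on the log2 scale from 1 to 7 days was 1 in place of 2 with library totals, with upper-quartile scaling and without LPS 1 day replicate 3 or LPS 7 day replicate 3 (range 1 to 2 when leaving out 1 library). Leaving out 1 library gave 19 to 21 members lower and 6 to 8 higher at 1 day, 17 to 20 higher and 2 to 4 lower at 7 days against PBS, and 24 to 25 higher and 5 to 6 lower between the times. No member's log2 fold change that passed in either fit changed sign under these alternatives. With the median in place of the mean over genes, lipid enzymes minus structure genes averaged -2.17 in PBS, -2.90 at 1 day and -1.73 at 7 days after LPS, and structure minus precursor genes 2.18, 1.75 and 1.99; the cause was not tested. Same-numbered libraries share only a number: their deviations from group means correlated at -0.02 to 0.03 over 9 pairs. With the replicate block 21 members fell and 7 rose at 1 day, 20 rose and 2 fell at 7 days against PBS, and 25 rose and 6 fell between the times. Depth limited Pllp and Nkx2-2, with 21 to 62 counts a library.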
